A study of Mus musculus with 29 samples.

Results

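The regions described here are the shores of unmethylated CpG islands: bins of 1 kb that lie directly before or after a bin dense in unmethylated CpGs. They were chosen on the 3 S/L p20 libraries (embryonic stem cells in serum with LIF at passage 20), using autosomal CpGs with at least 5 reads in each of them. A core was a bin with 20 or more such CpGs and a methylation level, the methylated share of all reads, of 5% or less. A shore was a bin next to a core with 3 to 9 such CpGs and a level of 20 to 90%. This gave 536 shores among 183588 bins, next to 522 of the 9965 cores. There were 278 shores after a core and 259 before one, of which 1 lay between 2 cores, and 15 cores had a shore on both sides. All 19 autosomes held shores, from 11 to 56 each. Of the 3683 bins of 3 to 9 CpGs beside a core, 3142 were under 20% and 5 were over 90%, so the shores were the 14.6% with the intermediate or high level that the rule asked for. At the limits, the nearest bin left out had a level of 19.9% and the lowest shore 20%, while the highest shore had 88.9% and the next bin left out 90.9%. The highest core had 4.97%, and the lowest bin of 20 CpGs that was no core had 5.01%.

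The assay was reduced representation bisulfite sequencing, which reads methylation in CpG-rich fragments, here in 29 libraries that form 15 groups. Most are of embryonic stem cells (ESCs) from 3 male mouse lines called J-34, J-35 and J-37. They were moved to a medium at passage 4 and kept there for 6 passages, to passage 10 (p10), or for 16, to passage 20 (p20). All media held LIF. The media were 2i/L (inhibitors of Mek1/2 and of Gsk3), a2i/L and PKCi/L, whose compositions the labels do not give, and serum (S/L). 2i/L p10, 2i/L p20, S/L p20 and S/L p10 had 1 library of each line. The a2i/L p20 and PKCi/L p20 groups had J-34 and J-35, a2i/L p10 had J-34 and PKCi/L p10 had J-35. In 2i/L to S/L p23 (p23), cells of all 3 lines had spent 16 passages in 2i/L and then 3 in S/L. In 2i/L to S/L p30 (p30) they had spent 10 passages back in S/L; of its 2 libraries, 1 is J-37 and the other is titled J-35 while its other labels say J-34. PD usually stands for the inhibitor of Mek1/2 and CHIR for that of Gsk3; these were given alone to J-34 for 6 passages. MEK DKO is a single library of a clonal line of induced pluripotent stem cells, made from Mek1 fl/fl; Mek2-/- fibroblasts with inducible Oct4, Klf4, Sox2 and c-Myc. Its Mek1 allele was deleted with Cre, and it grew on feeder fibroblasts in S/L. The 2i/L keratinocytes (2 libraries, labelled male, with no route from 2i/L culture given) and the wild-type keratinocytes (1 library, labelled female) are labelled as keratinocytes of newborn mice. The libraries held 8359802 to 22433006 reads over CpGs.

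CpG islands are stretches rich in CpGs that surround the starts of many genes and usually stay free of methylation. Their shores are the flanks over which the level climbs to that of the surrounding DNA, and shores are known for methylation that differs between tissues. In ESCs the enzymes Dnmt3a and Dnmt3b with their partner Dnmt3l set new methylation, Dnmt1 with Uhrf1 copies it at replication, and Tet enzymes oxidise it. Mouse ESCs in serum keep a highly methylated genome, and Mek inhibition is known to lower methylation across it.

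To follow shores in all 15 groups, all CpGs read at least once in each of the 29 libraries were used, and a bin needed 3 such CpGs and 20 reads in each library. This kept 235 shores with a median of 5 CpGs and of 68 reads per shore and library; the other 301 were not covered in all libraries. Over their own CpGs from the S/L p20 libraries, where 10 reads were at hand in each library, the shores not followed averaged 21.95% in 2i/L p10 (274 shores) and 57.1% in S/L p10 (270 shores). The followed ones averaged 19.2% and 52.2% in these groups. Coverage differed between sets of libraries. Reads per CpG, as log2(reads + 1), correlated at 0.853 or more among the 11 libraries of p10, PD, CHIR and MEK DKO. They correlated at 0.872 or more among the 9 libraries of p23, 2i/L p20 and S/L p20, and at 0.667 or more among the 9 of a2i/L p20, PKCi/L p20, p30 and the keratinocytes. Between the last set and the other 2 the highest value was 0.560, and between the first 2 sets it was 0.833. The labels name no batch, so the sets are known from coverage alone, and comparisons across them cannot be told apart from these sets. 2i/L p10 against S/L p10 and p23 against 2i/L p20 lie within a set.

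Genes were attached where a promoter sequence could be placed on the measured CpGs by the spacing of its CpGs. Of 6022 promoters placed, 2621 started in a core. A placed start lay in the core beside 131 of the 536 shores (133 genes): 67 shores were on the gene body side of it, 59 upstream and 5 had starts in both directions. None of the 26 genes of the DNA methylation machinery, 35 of the FGF and ERK pathway and 20 of pluripotency that were looked up stood beside a shore. However, the promoters of only 8, 10 and 3 of them could be placed, and only 4, 8 and 2 started in a core. As 522 of the 9965 cores lie beside a shore, so few genes cannot set these lists apart. Promoters of 5 genes beside followed shores are printed because these genes start in the core bins beside those shores. They were read from RefSeq (GRCm38.p6), run 5′ to 3′ on the gene's strand from 250 bases before to 50 after the start, and have each CpG in capitals. Slc29a4 encodes a monoamine transporter, Vps29 a subunit of the retromer, Cops3 a subunit of the COP9 signalosome, Wnt1 a signalling ligand needed for midbrain formation, and Gata5 a transcription factor of heart and endoderm.
Slc29a4: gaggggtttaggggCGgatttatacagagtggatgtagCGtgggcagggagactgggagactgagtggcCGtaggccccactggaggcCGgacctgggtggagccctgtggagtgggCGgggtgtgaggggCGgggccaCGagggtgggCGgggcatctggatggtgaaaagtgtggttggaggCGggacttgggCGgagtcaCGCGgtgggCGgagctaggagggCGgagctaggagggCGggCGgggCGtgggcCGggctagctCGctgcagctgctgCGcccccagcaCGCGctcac
Vps29: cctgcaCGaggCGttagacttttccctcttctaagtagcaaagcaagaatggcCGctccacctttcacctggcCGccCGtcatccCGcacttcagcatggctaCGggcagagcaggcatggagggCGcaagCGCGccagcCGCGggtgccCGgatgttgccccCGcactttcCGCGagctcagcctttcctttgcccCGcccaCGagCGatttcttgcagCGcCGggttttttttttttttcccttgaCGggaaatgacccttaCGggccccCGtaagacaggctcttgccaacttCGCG
Cops3: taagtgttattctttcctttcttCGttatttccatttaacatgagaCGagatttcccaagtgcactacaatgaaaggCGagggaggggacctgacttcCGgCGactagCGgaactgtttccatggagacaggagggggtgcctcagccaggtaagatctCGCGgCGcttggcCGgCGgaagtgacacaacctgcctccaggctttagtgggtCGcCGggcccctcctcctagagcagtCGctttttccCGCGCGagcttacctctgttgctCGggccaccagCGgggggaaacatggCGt
Wnt1: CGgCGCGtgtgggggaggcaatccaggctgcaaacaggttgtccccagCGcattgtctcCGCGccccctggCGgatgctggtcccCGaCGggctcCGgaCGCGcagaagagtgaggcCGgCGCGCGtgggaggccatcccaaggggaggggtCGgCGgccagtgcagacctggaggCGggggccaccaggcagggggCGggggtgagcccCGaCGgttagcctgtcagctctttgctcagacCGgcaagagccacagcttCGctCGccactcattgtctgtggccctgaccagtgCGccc
Gata5: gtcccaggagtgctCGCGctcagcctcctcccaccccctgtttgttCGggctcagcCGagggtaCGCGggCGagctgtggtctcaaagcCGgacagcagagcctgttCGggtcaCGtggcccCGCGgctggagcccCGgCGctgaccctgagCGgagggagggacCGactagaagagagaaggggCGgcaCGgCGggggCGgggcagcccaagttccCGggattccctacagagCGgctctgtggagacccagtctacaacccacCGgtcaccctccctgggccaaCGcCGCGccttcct
By the spacing of their CpGs, these windows lie in mm9 at chr5:143177805-143178104 (plus strand), chr5:122804087-122804386 (plus), chr11:59653220-59653519 (minus), chr15:98620038-98620337 (plus) and chr2:180069335-180069634 (minus). They hold 22, 26, 20, 26 and 26 CpGs, and 26 or more CpGs stand in 16.9% of the 32851 promoters of the table. Of these CpGs, 10, 9, 12, 15 and 16 were measured in every library. The promoter CpGs of Slc29a4, Vps29 and Cops3 were at most 2.06%, 1.28% and 1.29% methylated in any library. Those of Gata5 reached 4.83% and those of Wnt1 10.5%. The Wnt1 window stood at 1.47% in 2i/L p10, 7.52% in p23 and 6.28% in S/L p10. The first 3 genes stand beside shores named by the rule for naming bins, and Wnt1 and Gata5 were chosen after their values were seen.

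The cores next to shores were also low in groups that the rule did not use. Over 17618 CpGs of the 522 cores the level was 0.596% ± 0.0135 in 2i/L p10 and 1.23% ± 0.0773 in S/L p10 (SD, n = 3 each). It was 1.47% ± 0.0461 in p23 (SD, n = 3), 0.527% in MEK DKO and 2.93% in the wild-type keratinocytes. All 9965 cores together stood at 0.448% in 2i/L p10, 0.824% in p23, 1.41% in the wild-type keratinocytes and 0.685% in S/L p10. The cores kept the label of unmethylated islands in all groups, with their highest level in keratinocytes.

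The first question was how far shores lost methylation in 2i/L. Shores fell to a mean level of 19.2% ± 0.835 in 2i/L p10, against 52.0% ± 0.598 in S/L p10 (SD over 3 lines each). Line by line, 2i/L p10 stood at 19.0% (J-34), 18.4% (J-35) and 20.1% (J-37), and S/L p10 at 51.7%, 52.6% and 51.5% in the same order. The groups did not overlap, and the drop was 32.7, 34.2 and 31.4 points (percentage points) in these lines. All 235 shores had the lower mean in 2i/L p10, and in 224 every 2i/L p10 library lay below every S/L p10 library. Neither count was made over all bins, so they do not set shores apart. Limma calls needed 20 points or more and an adjusted p below 0.05; by them 199 of the 235 were lower in 2i/L p10 and 0 higher. The background was 44.7% of all 47152 bins called lower. The median difference was -33.20 points over shores and -10.02 points over all bins, many of which are unmethylated in every group. All 36 shores not called differed by less than 20 points. Only 4 shores were still at 50% or more in 2i/L p10, against 115 in S/L p10, and 59 were under 10%, against 1.

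**Figure D1:**
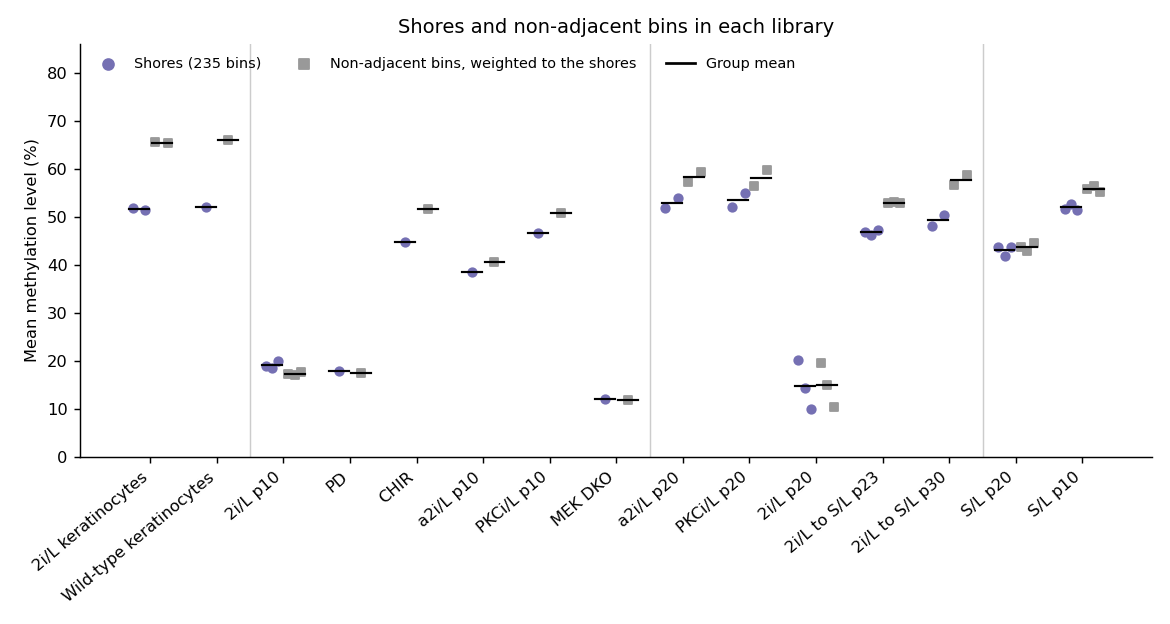
Mean methylation level (%) of the 235 followed shores (circles) and of 17913 non-adjacent bins weighted to the same S/L p20 levels (squares); each point is a library and black lines are group means. The 2i/L p10, PD, MEK DKO and 2i/L p20 libraries lie at 20.2% or below, and the squares lie above the circles most in the keratinocytes.

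The 5 shores with the largest falls had 4 or 5 CpGs each and dropped by 57.4 to 60.6 points. The one beside Slc29a4 (chr5:143179744-143179946, mm9, 1689 to 1891 bp into the gene from its start) held 32.3%, 25.8% and 25.0% in 2i/L p10, against 87.0%, 78.5% and 91.5% in S/L p10. All 3 lines fell by more than the spread within either group (limma adjusted p = 9.38e-08). The largest fall of all, at chr13:54849493-54849729, gave 22.6%, 14.9% and 20.4% in 2i/L p10 and 76.9%, 77.8% and 85.0% in S/L p10 (limma adjusted p = 1.69e-07). Among shores at 50% or more in S/L p10, the 5 smallest changes were still drops of 22.4 to 27.8 points. The smallest was at chr11:101123086-101123325, with 38.96%, 44.4% and 55.6% in 2i/L p10 and 76.3%, 66.1% and 63.9% in S/L p10 (limma adjusted p = 0.0176). Every shore at 50% or more in S/L p10 thus had a mean at least 22.4 points lower in 2i/L p10.

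Of the 54 followed shores beside a placed start, 48 were called lower in 2i/L p10, beside 84.7% of all followed shores and 44.7% of all bins. The shore upstream of Gata5 had 33.9%, 28.7% and 37.3% in 2i/L p10, against 82.9%, 82.5% and 81.9% in S/L p10 (limma adjusted p = 7.31e-06). Upstream of Wnt1 the libraries were wider apart, at 16.3%, 37.5% and 28.0% in 2i/L p10 and 51.7%, 65.8% and 77.3% in S/L p10 (limma adjusted p = 0.000619), from 22 to 43 reads each. Wnt11, Hes6, Slc3a2 and Aqp11 are likewise examples picked outside the rule for naming bins. The shores of the Wnt ligand gene Wnt11 and of Hes6, a regulator of neurogenesis, followed the same course. They held 30.5% in 2i/L p10 and 70.3% in S/L p10 for Wnt11, 23.6% and 59.2% for Hes6. The shore upstream of Slc3a2, which encodes the heavy chain of amino acid transporters, stood at 6.69% in 2i/L p10 and 45.3% in S/L p10. Aqp11, an aquaporin gene, had a followed shore on both sides: the upstream one held 43.0% in 2i/L p10 and 81.4% in S/L p10, the gene body one 6.36% and 44.6%. The smallest change was beside Tmem120b, at 6.87% in 2i/L p10 and 8.39% in S/L p10 (limma adjusted p = 0.602), a shore that lay under 20% in S/L p10. Shores on the gene body side of a start (34 followed) averaged 15.7% ± 1.54 in 2i/L p10 and 46.8% ± 1.96 in S/L p10, and upstream shores (18) averaged 22.3% ± 1.23 and 55.2% ± 0.0267 (SD, n = 3 each). The 2 sides were not tested against each other.

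**Figure D2:**
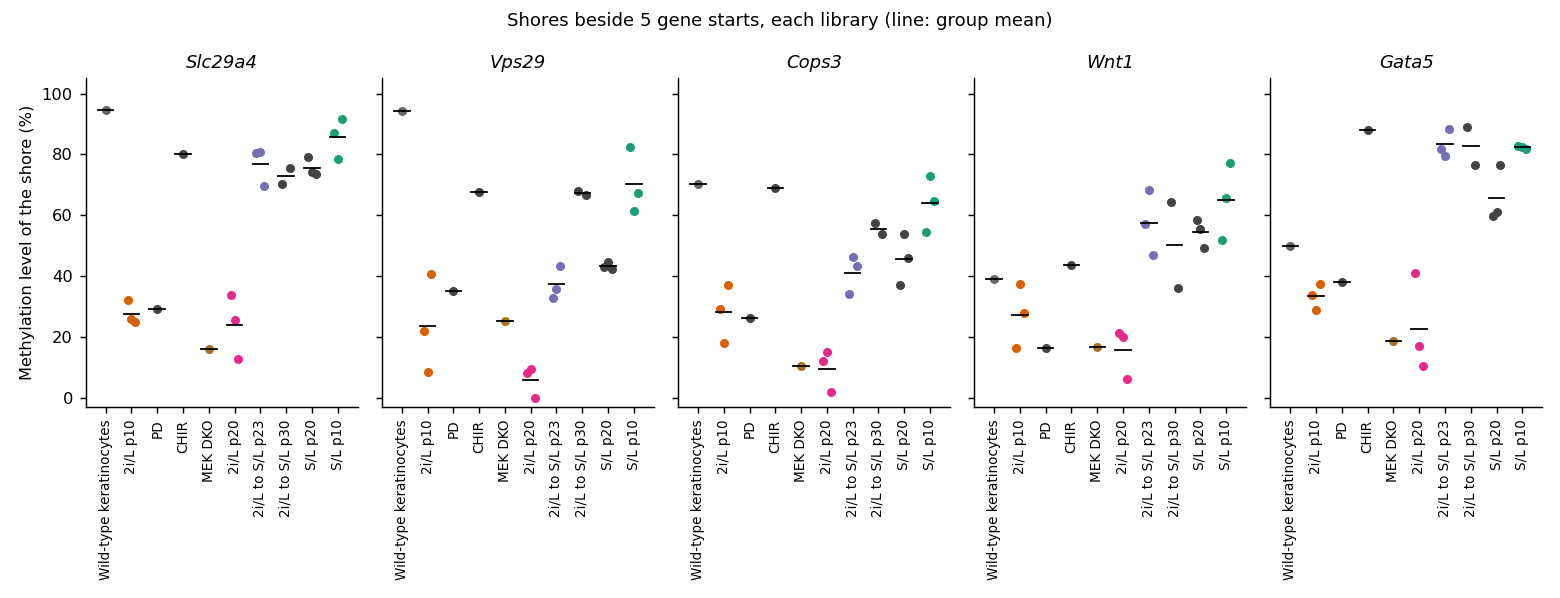
Methylation level (%) of the shores beside Slc29a4, Vps29, Cops3, Wnt1 and Gata5 in each library of 10 groups; points are libraries and lines group means. In each panel the 2i/L p10, PD, MEK DKO and 2i/L p20 means lie below the S/L p10 mean. In p23 Gata5 holds 83.3%, against 82.4% in S/L p10, and Vps29 37.4%, against 70.4% (43.3% in S/L p20). Vps29 was picked for its low p23 level and Gata5 after its values were seen, so this contrast is no result.

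Within shores the level climbed with distance from the island, in 2i/L as in serum. The 1265 CpGs of the followed shores were classed by distance from the nearest core CpG. Under 200 bp (152 CpGs) the level was 4.36% ± 0.527 in 2i/L p10 and 14.7% ± 0.623 in S/L p10. At 400 to 600 bp (228 CpGs) it was 17.9% ± 0.840 in 2i/L p10 and 50.6% ± 0.679 in S/L p10. At 1000 to 1200 bp (143 CpGs) it was 25.4% ± 1.33 in 2i/L p10 and 66.1% ± 0.487 in S/L p10 (SD, n = 3 in each case). Over these 3 classes the drop in points thus grew with distance, from CpGs that were already low at the island's edge. Over all classes the growth was not steady. At 600 to 800 bp 2i/L p10 held 20.3%, against 58.2% in S/L p10, and at 800 to 1000 bp 22.9%, against 58.9%. In p23 the same 3 classes held 15.6% ± 1.39, 45.1% ± 0.526 and 59.7% ± 1.01 (SD, n = 3). The class next to the island was as high in p23 as in S/L p10 within the spread of the libraries, while both outer classes lay below it in p23 by more than that spread.

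**Figure D3:**
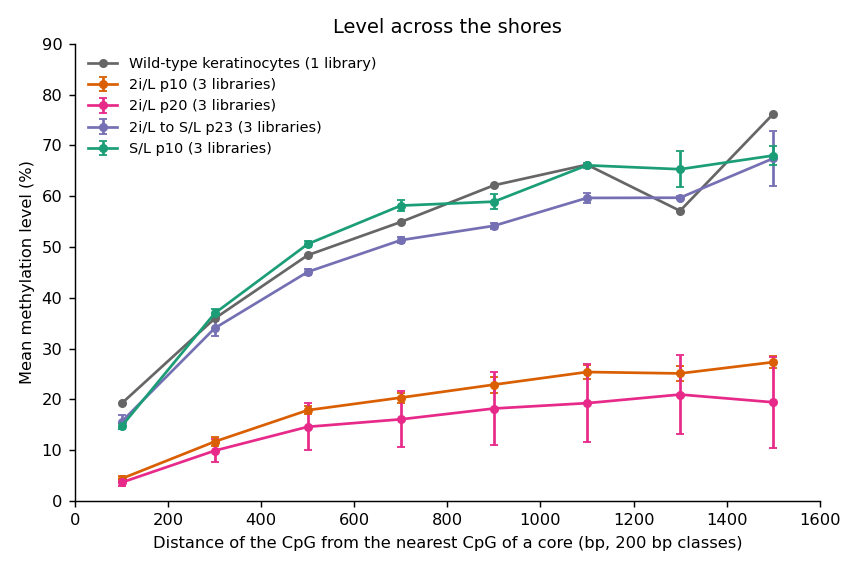
Mean methylation level (%) of CpGs in the followed shores against their distance from the nearest core CpG in classes of 200 bp; error bars are SD over 3 libraries, and the wild-type keratinocytes are 1 library. The p23 and S/L p10 curves start together near the core, and p23 lies below S/L p10 from 200 to 1400 bp; the class from 1400 bp holds 13 CpGs.

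Shores were then set against bins of 3 to 9 CpGs and 20 to 90% that do not touch a core, 17913 of which were followed. These had a median level of 74.6% in S/L p20, against 41.8% for the shores, so they were weighted to the shores in steps of 10 points of the S/L p20 level. Weighted in this way they dropped by 38.4 points to 17.3% ± 0.374 in 2i/L p10, against 55.8% ± 0.686 in S/L p10 (SD, n = 3 each). The shores' drop of 32.8 points was 5.62 points smaller, by 5.84, 5.17 and 5.86 points in J-34, J-35 and J-37. As a share of the S/L p10 level, 36.9% remained in shores and 31.1% in the other bins. This order holds for bins chosen and weighted by their S/L p20 level. Among all followed bins of 3 to 9 CpGs, whatever their level, it was reversed. There 38.5% remained directly beside a core and 41.6% beyond 10 bins. Of the non-adjacent bins 91.6%, weighted, were called lower in 2i/L p10, against 84.7% of the shores. In S/L p10, a parallel culture, the shores themselves lay 3.80 points below the weighted bins, though both had been given the same S/L p20 level. When the bins were weighted by their S/L p10 level instead, the difference was 2.74 points. At 20 to 30% in S/L p20, 68 shores had 9.81% in 2i/L p10 and 31.9% in S/L p10, and 1391 other bins had 9.78% and 37.04%. At 70 to 80%, 15 shores had 35.8% in 2i/L p10 and 82.0% in S/L p10, and 4043 other bins had 32.6% and 83.2%. No test was made of the difference between the 2 kinds of bin.

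The question for the single agents and the knockout was which of them shared the low level of 2i/L. PD alone gave shores a mean of 17.8% and MEK DKO 12.1%, both below each of the 3 S/L p10 libraries (51.5% to 52.6%) and, for MEK DKO, below each 2i/L p10 library. In 233 of the 235 shores the PD library lay below all S/L p10 libraries, and the MEK DKO library did so in 233 as well. CHIR alone gave 44.7%, 7.25 points under S/L p10, with 130 shores below and 27 above all S/L p10 libraries. Such counts were not made over all bins, so they do not set shores apart. The a2i/L p10 library stood at 38.5% and PKCi/L p10 at 46.6%. Beside Gata5 the levels were 38.2% with PD, 88.2% with CHIR, 18.6% in MEK DKO and 82.4% in S/L p10; beside Wnt1 they were 16.3%, 43.6%, 16.7% and 64.9%. These groups have 1 library each, so their differences have no replicate check, and MEK DKO also differs from the ESCs in its origin and line. The weighted non-adjacent bins stood at 17.6% with PD, 11.9% in MEK DKO, 51.6% with CHIR, 40.5% in a2i/L p10 and 50.9% in PKCi/L p10. Shores were thus level with other bins where methylation was lowest, and 4.23 to 6.93 points below them with CHIR and in PKCi/L p10.

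After 16 passages in 2i/L the lines had come apart. Shores held 20.2% in 2i/L p20 of J-34, 14.4% in J-35 and 9.99% in J-37, against 19.0%, 18.4% and 20.1% in the same lines in 2i/L p10. The change was 1.16 points in J-34, -4.03 in J-35 and -10.09 in J-37. The weighted non-adjacent bins came apart likewise. They held 19.6%, 14.9% and 10.4% in 2i/L p20 of these lines, against 17.2%, 17.1% and 17.8% in 2i/L p10. With limma 0 of the 235 shores were called lower in 2i/L p20 than in 2i/L p10 (background 0.0827% of all bins) and 0 higher; before adjustment 43 were under p = 0.05, and the quasi-binomial model called 3 lower. Without the J-34 library of 2i/L p20, limma called 6 lower. The 2 groups also belong to different coverage sets.

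The other inhibitor media at p20 had far higher shore levels than 2i/L. PKCi/L p20 averaged 53.5% ± 1.93 and a2i/L p20 52.8% ± 1.44 (SD, n = 2 each), against 14.9% ± 5.11 in 2i/L p20 (SD, n = 3). Limma called 195 of the 235 shores higher in a2i/L p20 than in 2i/L p20 (background 45.6%) and 0 lower (0.00212%). In PKCi/L p20 it called 200 higher (background 45.7%) and 0 lower (0.00424%). Many of the background bins are unmethylated in every group, so these calls do not set shores apart. For a2i/L p20 the difference from 2i/L p20 was 38.0 points in shores and 43.4 points in the weighted non-adjacent bins. For PKCi/L p20 these values were 38.7 and 43.1 points. Without weighting, 17208 and 17252 of the 17913 non-adjacent bins were called higher, in the same order. Both comparisons share the 2i/L p20 libraries and cross coverage sets. S/L p20, which chose the shores, stood at 43.1%, and S/L p10, of the remaining set, at 52.0%. The a2i/L p10 library of J-34 had been at 38.5%, while a2i/L p20 of J-34 held 51.8%.

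The next question was whether shores regained methylation on return to serum. After 3 passages in S/L they stood at 46.8% ± 0.547 in p23, against 14.9% ± 5.11 in 2i/L p20 (SD, n = 3 each). J-34, J-35 and J-37 held 47.0%, 46.2% and 47.3% in p23, against 20.2%, 14.4% and 9.99% in 2i/L p20. The lines that had been far apart in 2i/L p20 lay close together in p23. In 230 shores every p23 library was above every 2i/L p20 library, a count not made over all bins. Limma called 193 higher (background 45.8%) and 0 lower. The 42 shores not called differed by less than 20 points. The weighted non-adjacent bins gained 38.0 points and the shores 32.0 points, a difference of -6.04 points, and 91.8% of them were called, against 82.1% of the shores. The shores' gain minus that of the weighted bins was -6.56 points in J-34, -6.44 in J-35 and -5.11 in J-37; with weighting by the S/L p10 level it was -4.47 points.

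Compared with S/L p10, 1 of the 2 serum groups that had never been in 2i/L, the returned shores lay somewhat lower. They held 46.8% ± 0.547 in p23 and 49.3% ± 1.65 in p30 (SD, n = 2), against 52.0% ± 0.598 in S/L p10. The p23 minus S/L p10 difference was -4.75, -6.41 and -4.22 points in J-34, J-35 and J-37, more than the spread among lines. Of the 235 shores, 170 had the lower mean in p23, a count not made over all bins. The weighted non-adjacent bins differed from S/L p10 by -2.77 points in p23 and 1.84 points in p30, against -5.13 and -2.64 points in shores. Both groups are in other coverage sets than S/L p10. The S/L p20 group, in the set of p23, stood at 43.1%, below p23. It chose the shores, so this is given as a description only. Among all followed bins of 3 to 9 CpGs, whatever their level, S/L p20 also lay below p23. Directly beside a core it held 7.20%, against 8.78% in p23. Beyond 10 bins it held 54.4%, against 57.8% in p23. Limma called 2 shores lower in p23 than in S/L p10 (background 0.556%) and 0 higher (background 0.0318%). Before adjustment 35 were under p = 0.05, and with the quasi-binomial model 5 were lower and 1 was higher. With cell line as a block, limma called 1 lower. Each of the calls of limma was lost when any 1 of the 6 libraries was left out. Between p30 and p23, limma called 1 shore higher (background 0.233%) and 0 lower (background 0.0276%), the quasi-binomial model 6 and 2 (735 and 86 of all bins). The 1 call was lost when any 1 of the 5 libraries was left out. That shore, at chr8:119255014-119255316, had 72.9% and 81.0% in p30 and 44.3%, 34.9% and 35.9% in p23 (limma adjusted p = 0.0354).

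**Figure D4:**
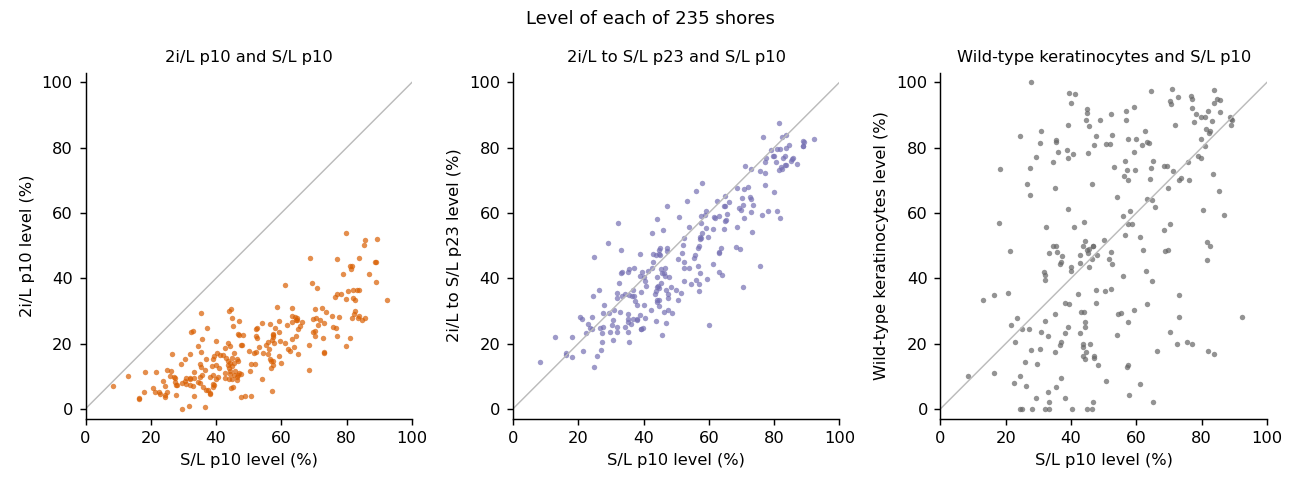
Methylation level (%) of each of the 235 shores in 2i/L p10, in p23 and in the wild-type keratinocytes (y axes) against S/L p10 (x axes), as group means; grey lines mark equal levels. All 235 points lie below the line in 2i/L p10 and 170 in p23, while in keratinocytes 115 lie below and 120 above.

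The order of the shores was largely kept. Across the 235 shores, Spearman's rho with S/L p10 was 0.80 in 2i/L p10, 0.71 in 2i/L p20, 0.86 in p23, 0.87 in p30 and 0.67 in MEK DKO, as a description. Between the S/L p10 libraries of J-35 and J-34 it was 0.89, and between the group means of S/L p20, which chose the shores, and S/L p10 it was 0.93. Shores with the lowest p23 minus S/L p10 differences were picked among those whose libraries do not overlap, so their lack of overlap is no result. The one at chr19:5423458-5423754 had 25.4%, 23.8% and 27.8% in p23, against 57.8%, 59.4% and 62.8% in S/L p10 (limma adjusted p = 0.0227). In p30 it held 56.0% and 46.6%, and in the 3 S/L p20 libraries 32.04% to 50%. The shore beside Vps29, which also lies upstream of Rad9b, a gene of the checkpoint clamp family (chr5:122805910-122805966), had 32.9%, 35.7% and 43.5% in p23 and 82.5%, 61.3% and 67.4% in S/L p10 (limma adjusted p = 0.109). It held 67.9% and 66.7% in p30, and 42.3% to 44.7% in S/L p20. The shore upstream of Cops3 (chr11:59654206-59654307, 3 CpGs) had 34.04%, 46.2% and 43.2% in p23 and 54.5%, 73.0% and 64.9% in S/L p10 (limma adjusted p = 0.251). Of these 3 differences from S/L p10 only that on chromosome 19 passed, in a call lost without any 1 library, and in all 3 both p30 libraries lay above those of p23. In the other direction, the shore at chr19:59535248-59535998 had 61.1%, 48.7% and 61.2% in p23 and 43.1%, 36.6% and 16.7% in S/L p10 (limma adjusted p = 0.114), and p30 held 39.7% and 43.1%. None of the 5 highest differences of this kind passed limma's threshold. These shores were picked for a high p23 level, so a lower p30 level is likewise no result.

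The keratinocytes tested whether shores keep their ESC level in a differentiated cell. The mean was nearly the same, 51.7% ± 0.352 in the 2i/L keratinocytes (SD, n = 2) and 52.0% in the wild-type keratinocytes, against 52.0% ± 0.598 in S/L p10, but single shores were far apart. In the wild-type keratinocytes 51 of the 235 shores were 20 points or more above S/L p10 and 54 were 20 points or more below. In 46 and 44 of them all 3 keratinocyte libraries did so. Wild-type keratinocytes had 21 shores under 10% and 24 at 90% or more. Spearman's rho across shores was 0.43 between the wild-type keratinocytes and S/L p10, and 0.95 between the 2i/L and the wild-type keratinocytes. The a2i/L p20 libraries, of the same coverage set as the keratinocytes, had a rho of 0.88 with S/L p10. The 2 keratinocyte groups differed by -0.37 points on average over the shores.

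Examples show how far this went. The shore at chr7:16558043-16558175 had 86.4% and 90.9% in the 2i/L keratinocytes and 100% in the wild-type keratinocytes, against 32.9%, 25.3% and 25.0% in S/L p10. At chr17:34160011-34160116, 8 CpGs gave 98.1% and 98.1% in the 2i/L keratinocytes and 96.9% in the wild-type keratinocytes, against 44.7%, 42.6% and 30.9% in S/L p10. On the other side, at chr15:78547165-78547794 the levels were 16.2% and 7.84% in the 2i/L keratinocytes and 16.7% in the wild-type keratinocytes, against 91.1%, 73.7% and 86.4% in S/L p10. The shore at chr9:117780051-117780149, which was among the 5 largest falls in 2i/L p10, had 30.2% and 4.00% in the 2i/L keratinocytes and 28.0% in the wild-type keratinocytes, against 94.9%, 93.7% and 88.5% in S/L p10. Genes outside the rule for naming bins were also picked as examples. The shore of Kcnk2, a potassium channel gene, held 2.08% in the wild-type keratinocytes and 33.3% in S/L p10. That of Isyna1, the gene of inositol phosphate synthase, held 96.4% and 41.2%. That of Slc3a2 held 78.4% in the wild-type keratinocytes and 45.3% in S/L p10. With 1 wild-type library, these differences carry no test between the cell types.

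Non-adjacent bins behaved differently in their mean. Weighted to the shores they stood at 65.9% in the wild-type keratinocytes, 10.2 points above S/L p10, where shores were 0.0841 points above it. Of them 39.6% were 20 points or more above S/L p10 and 17.5% as far below, against 21.7% and 22.98% of the shores. The shores lay 13.9 points below the non-adjacent bins in the wild-type keratinocytes, 13.6 and 13.9 points below them in the 2i/L keratinocytes, and 3.80 points below them in S/L p10. The difference between shores and other bins was thus widest in keratinocytes, in these 15 groups and without a test. It holds for bins chosen and weighted by their S/L p20 level, and the part played by this choice was not tested. Among all followed bins with the CpG number of shores, whatever their level, the shares ran the other way. Directly beside a core the wild-type keratinocytes held 11.6%, against 9.07% in S/L p10, or 127.5% of the S/L p10 level. Beyond 10 bins the wild-type keratinocytes held 64.2%, against 61.2% in S/L p10, or 104.9% of the S/L p10 level.

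Seen from the cores outward, over all followed bins of 3 to 9 CpGs whatever their level, the climb was steepest in the first 3 kb. Directly beside a core (2108 bins) the mean was 3.49% ± 0.127 in 2i/L p10 and 9.07% ± 0.152 in S/L p10 (SD, n = 3 each), since most such bins are unmethylated. At the second bin (570 bins) it was 15.5% ± 0.0702 in 2i/L p10 and 37.4% ± 0.598 in S/L p10. At the third (488 bins) it was 19.4% ± 0.460 in 2i/L p10 and 47.4% ± 0.581 in S/L p10, and beyond 10 bins (21618 bins) 25.5% ± 0.390 and 61.2% ± 0.336. As a share of S/L p10, 2i/L p10 kept 38.5% directly beside the core, 41.5% at the second bin, 40.9% at the third and 41.6% beyond 10 bins. For p23 these shares were 96.8%, 93.9%, 94.5% and 94.4%. Over these 4 distances the kept share varied by far less than the level itself.

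**Figure D5:**
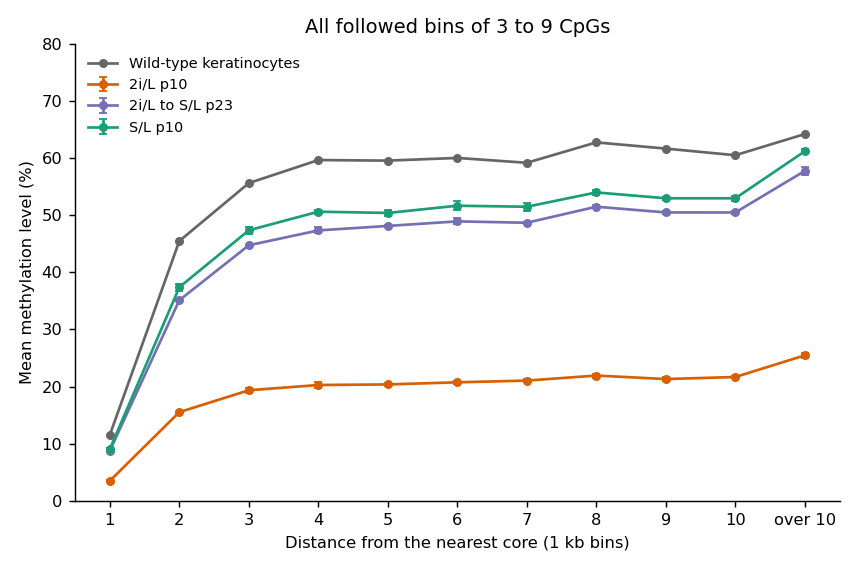
Mean methylation level (%) of all followed bins of 3 to 9 CpGs against their distance from the nearest core in 1 kb bins; error bars are SD over 3 libraries and the wild-type keratinocytes are 1 library. All curves climb over the first 3 bins, with S/L p10 at 9.07% in the first bin and 47.4% in the third.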

How the data were processed

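Methylation was read by reduced representation bisulfite sequencing in 29 libraries. The authors deposited, for each CpG, the methylated and all reads as a text field and a score that equals 1000 times their ratio, rounded down. BSMAP 2.89 and the mouse build mm9 are named in the submitters' processing notes; how reads were trimmed or called was not stated in the labels used here. Levels here come from the read counts behind the score, so reads, not single molecules, are counted. Depth was 8359802 to 22433006 reads over CpGs per library.

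Bins of 1000 bp were built in Python 3.11.15 (numpy 2.4.6, pandas 2.3.3). A bin's level was its summed methylated over all reads. The 5 read minimum in every library left 118 shores, under the 200 required, so the stated fallback of 1 read per CpG and 20 reads per bin was used. Bins were tested with limma 3.58.1 (R 4.3.3) on log2((methylated + 1)/(unmethylated + 1)), two-sided, over 21 libraries of the 8 replicated ESC groups, with Benjamini-Hochberg adjustment over 47152 bins. Calls needed 20 points or more beside an adjusted p below 0.05. The procedure was checked on simulated data. A quasi-binomial model, a pseudocount of 0.5, other coverage minimums, other core limits, other weightings, fewer groups, cell line as a block and each library left out were the alternatives. The replicate number is the cell line, which pairs the groups; deviations of the same line correlated at -0.02 to 0.16 between groups. The labels do not say whether libraries of a group are separate cultures beyond their line, so p-values measure the spread between these samples.

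Named bins were the 5 largest falls and 5 smallest changes in 2i/L p10, the 5 lowest and 5 highest differences of p23 and S/L p10, and the 3 highest and 3 lowest of keratinocytes and S/L p10, with starting level and non-overlap conditions. Shores of Wnt1, Gata5, Wnt11, Hes6, Slc3a2, Aqp11, Kcnk2 and Isyna1 lie outside these sets and were picked as examples. That of Tmem120b was given for the smallest fall among followed shores beside a placed start. Members and gene lists were chosen with earlier results of these data known. No mm9 genome was used: promoters of GRCm38.p6 were placed where at least 6 of their CpGs, and no other listed CpG, fell on the files' CpG positions in 1 place.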

Additional observations from a re-analysis of the deposited data

How the results depend on the processing

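Of 74 alternatives other than left-out libraries, 42 kept the count within 1.5 times or the difference within the spread of lines, 30 moved and 2 reversed. Counts of called shores are given in the order 2i/L p10 against S/L p10, p23 against 2i/L p20, a2i/L p20 and PKCi/L p20 against 2i/L p20. The minimum of 5 reads per CpG was the setting planned first, but it was listed as an alternative only after seeing the data. With it 118 shores were left, and the counts were 98, 98, 98 and 100. With only the 2 groups and the CpGs that their libraries share, also chosen after seeing the data, they were 323 of 383, 431 of 509, 389 of 462 and 376 of 444 shores. With 10 reads per CpG 2 shores were left, and 1, 1, 0 and 1 were called. These counts move because the number of shores does.

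For p30 against p23 the count was 6 with the quasi-binomial model. It was 0 with a pseudocount of 0.5, with 10 or 5 reads, with only the 2 groups, with their shared CpGs, and with the cell line block when the p30 library was taken by its cell type. For p23 against S/L p10 it was 5 with the quasi-binomial model, 0 with a pseudocount of 0.5 or 10 reads, and 1 with 5 reads, with only the 2 groups or with cell line as a replicate block. The block gave 199, 193, 195 and 200 in the 4 comparisons above, 1 for p30 against p23 and 0 for 2i/L p20 against 2i/L p10, where the quasi-binomial model gave 3. The cause was not tested.

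The differences between shores and weighted bins were 2.74 (loss), -4.47 (gain in p23) and -3.80 points (p23 against S/L p10) with strata of the S/L p10 level. With 10 reads and 2 shores they were 4.55, 4.17 and 9.72 points, the last 2 with the sign reversed. Leaving out 1 library gave 194 to 200, 180 to 204, 190 to 200 and 195 to 202 called shores in the 4 comparisons, 0 to 6 for 2i/L p20 against 2i/L p10, and 0 for p30 against p23 and for p23 against S/L p10. It gave differences of 5.39 to 5.86, -6.34 to -5.65 and -2.66 to -1.97 points. The 1 read minimum listed as an alternative is the setting used. At 20 reads in a bin, single shores are resolved only coarsely, and 301 of the 536 were not followed.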
